A study of Mus musculus with 8 samples.

Results

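Wild-type (WT) peritoneal macrophages stimulated for 24 h with lipopolysaccharide (LPS), the outer membrane glycolipid of Gram-negative bacteria, were compared with unstimulated WT macrophages. The comparison rests on the WT channels of 4 arrays, 2 of unstimulated cells and 2 of cells after 24 h, out of 16 channels on 8 Agilent 2-colour arrays that also hold WT cells after 1 and 4 h and LysMCre-fur(fl/fl) cells (KO) at each time. The WT samples came from littermates of the KO mice on a C57BL/6 background and are the cells in which fur was not deleted. In KO mice LysMCre acts in myeloid cells. Peritoneal cells were washed out of the cavity, cultured, freed of nonadherent cells by washing, kept for 1 h in medium with 1% serum and then left unstimulated or given LPS from E. coli at 1 μg/ml. The samples were placed by the times in their titles and source names, since the growth protocol gives 4 h for every sample. The number of mice behind a sample, their age and whether cells of several mice were pooled are not given in the sources used here. The labels call the samples of a group biological replicates, and the p-values measure the spread between such samples. It is not stated whether unstimulated cells were collected at the start or cultured for as long as the stimulated ones, so LPS and time in culture cannot be told apart. The arrays of unstimulated cells lay in the first column of the slide and those of 24 h in the second, and this position cannot be told apart from time either. WT RNA carried Cy3 in replicate 1 and Cy5 in replicate 2 at each time, so the dye is the same on both sides of every difference taken within a replicate.

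LPS is bound by CD14 and the TLR4-MD-2 complex, which signals through the adaptors MyD88 and TRIF. The first leads mainly to NF-kB, MAP kinases and inflammatory cytokines, and the second also to IRF3, interferon beta and, through the interferon receptor, to interferon-induced genes. Most macrophages of the unstimulated peritoneal cavity are long-lived resident cells, which depend on the transcription factor GATA6 and on retinoic acid and express genes for the uptake of dying cells, complement and lipid mediators.

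Of 37018 genes and transcripts on the array, 36927 passed the filter on dim features (20835 of them with a gene name) and were tested with limma. All levels are log2 intensities after normalization, all changes are differences of these, and errors of changes are standard errors (SE) with 2 samples per group. In the 4 WT channels compared, between 47.3% and 51.3% of gene spots were well above the local background, and no spot was saturated. Genes that mark macrophages were among the brightest in unstimulated cells, such as Lyz2 (18.16 and 17.70 in replicates 1 and 2), Csf1r (17.64 and 17.55) and Adgre1, which encodes F4/80 (16.11 and 15.91). Markers of other cells were also measured. All 10 B cell markers were well above background in all 4 samples, among them Cd79b (15.32 and 15.68) and Ms4a1 (13.90 and 14.37 in unstimulated cells). Of 8 mast cell markers, 7 were above background, with Cpa3 at 12.10 and 11.48. Of 7 eosinophil markers 4 and of 8 neutrophil markers 4 were above background on both unstimulated arrays, whereas Epx and Prg2 of eosinophils and S100a9, Ngp, Retnlg and Cxcr2 of neutrophils were not well above background in either group. Genes of lymphocytes and mast cells were thus measured beside those of macrophages, and in such cultures fewer cells of a type and less RNA per cell cannot be told apart.

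Between unstimulated and 24 h WT cells, 5001 features rose (13.5% of those tested) and 6224 fell (16.9%) at an adjusted p under 0.05, and 1950 and 1945 of these changed by more than 2-fold. Changes of more than 8-fold numbered 272 upward and 126 downward. Among named genes 3401 rose (16.3%) and 4234 fell (20.3%). Many features tested were dim. A stricter filter kept 20520 features well above background in both channels of at least 2 arrays. Of these 5103 rose and 6424 fell, larger shares than over all features. The counts given below by list are to be read against these shares, and a count near them shows nothing particular to a list. The median change over all features tested was -0.015. All 11225 called features moved the same way in both replicates, which the call itself nearly requires, since it rests on the same samples. The changes measured in replicate 1 and in replicate 2, which share no sample, had a Pearson's r of 0.964 across the 13092 named genes above background and 0.935 across all features tested (Spearman's rho 0.751), where genes are not independent observations. The plot of one replicate against the other shows the large changes near the diagonal in both directions.

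**Figure D1:**
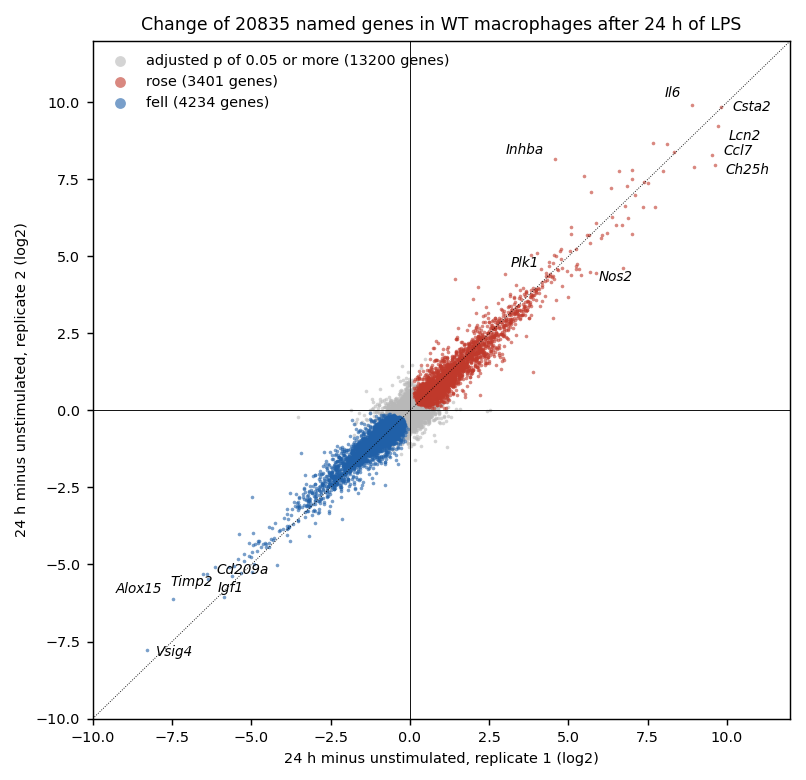
Change of each named gene in WT macrophages from unstimulated to 24 h of LPS (log2), with replicate 1 on the horizontal and replicate 2 on the vertical axis; red genes rose, blue genes fell and grey ones had an adjusted p of 0.05 or more, and the dotted line marks equal change. Csta2, Lcn2 and Il6 lie farthest up and Vsig4 and Alox15 farthest down, close to the line.

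The largest rise was that of Csta2, a gene of the stefin A family of cysteine protease inhibitors. Its levels were 6.96 and 6.57 in unstimulated cells and 16.78 and 16.42 after 24 h. The groups lay far apart, and the change of 9.84 (SE 0.40, adjusted p = 6.78e-10) is 913-fold, from a gene above background on 1 of the 2 unstimulated arrays. Lcn2, whose product lipocalin 2 withholds iron from bacteria by binding their siderophores, went from 7.75 and 7.81 to 17.47 and 17.06 (change 9.48, SE 0.21, 717-fold). Il6 went from 7.88 and 7.34 to 16.79 and 17.27 (change 9.42, SE 0.28, 684-fold, adjusted p = 4.19e-11). It encodes a cytokine of fever and of the acute phase response. The chemokine gene Ccl7 was at 8.19 and 7.77 before and 17.72 and 16.07 after LPS (change 8.91, SE 0.54). Ch25h, the enzyme that makes 25-hydroxycholesterol, was not well above background in unstimulated cells and stood at 15.92 and 14.16 after 24 h, which is at least 385-fold higher. The other genes among the 12 largest rises were Cxcl10, U90926 (at least 275-fold), Cstdc5 (above background on 1 of 2 unstimulated arrays), Ptgs2, Cstdc4 (at least 211-fold), Stfa2l1 (at least 145-fold) and Il1b. In none of these 12 did the samples of the groups overlap, which their choice as the largest called changes nearly fixes in advance.

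Vsig4 had the largest fall. It encodes a complement receptor of tissue macrophages that binds fragments of C3. Its levels were 15.58 and 14.94 in unstimulated and 7.28 and 7.16 in 24 h cells, a change of -8.04 (SE 0.28, adjusted p = 1.76e-10), or 263-fold. Alox15, the 12/15-lipoxygenase of resident macrophages, went from 14.67 and 13.88 to 7.21 and 7.76 (change -6.79, SE 0.33, 110-fold). Timp2, an inhibitor of metalloproteinases, changed by -5.95 (16.83 and 16.60 to 10.96 and 10.56), and Cd209a, a lectin also used as a marker of dendritic cells, was at least 49.2-fold lower and not well above background after 24 h. The others among the 12 largest falls included Igf1, Armc2 (at least 45.5-fold), Ldhb, Tnfsfm13, Timd4, Ccl24 and Selenop, with changes from -5.86 for Igf1 to -5.12 for Selenop. Their samples did not overlap between the groups either, which their choice by size again nearly fixes.

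The genes that carry the LPS signal changed little next to those with the largest rises. Of 17 genes of the TLR4 complex and its adaptors, 6 rose and 5 fell, with a median change of 0.19. Of all features 13.5% rose and 16.9% fell, and with the stricter background filter 5103 and 6424 of 20520 did. Tlr4 itself was at 9.83 and 9.57 in unstimulated and 9.92 and 10.37 in 24 h cells, and its change of 0.45 did not pass the test (SE 0.20, adjusted p = 0.126). Myd88 rose by 1.41 (SE 0.12), and Lbp, which carries LPS to CD14, fell by 1.92 (SE 0.23). Cd14 rose by 0.78 (SE 0.26, adjusted p = 0.0318), but not without either unstimulated sample or without replicate 2 at 24 h (adjusted p from 0.0741 to 0.166). Among 11 other Toll-like receptors, Tlr3, the receptor for double-stranded RNA, had the largest rise (1.82, SE 0.13), and Tlr13, a receptor for bacterial ribosomal RNA, had the largest fall, from 14.45 and 14.61 to 11.41 and 12.47 (change -2.59, SE 0.30). Tlr2, for bacterial lipopeptides, changed by -0.91 (SE 0.21), a call that is lost when arrays are normalized by loess alone (-0.50, adjusted p = 0.123).

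NF-kB subunits and their inhibitors were above resting levels in most cases. Of 11, 7 rose and 3 fell (median 0.60). Nfkbiz, an atypical inhibitor protein needed for Il6 induction, went from 8.71 and 8.54 to 11.11 and 10.77 (change 2.32, SE 0.19), and Nfkbia, the classical inhibitor IkB alpha, rose by 1.39 (SE 0.14). Nfkbid fell by 1.52 (SE 0.27) and Relb by 0.60 (SE 0.11), the latter not with loess alone (adjusted p = 0.238). Among 19 genes of proteins that restrain the response, 12 rose and 2 fell, with a median of 1.5, and every one of the 12 rises exceeded 2-fold. Socs1, which blocks JAK kinases, went from 7.4 and 7.72 to 12.98 and 13.41 (change 5.63, SE 0.17, adjusted p = 3.76e-11). Il1rn, the antagonist of the interleukin 1 receptor, rose by 4.96 (SE 0.35), Socs3 by 3.87 (SE 0.21) and Tnfaip3, the ubiquitin-editing enzyme A20, by 2.45 (SE 0.12). The groups did not overlap in these 4 genes, which were picked for their large called changes. Zfp36, whose product destabilizes cytokine mRNA, was at 8.87 and 8.63 before and 9.32 and 9.01 after 24 h and did not pass (adjusted p = 0.129). It passed as a rise with a term for the replicate number (0.0186) and with the software's processed signals (0.0205).

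Cytokine genes were mostly high after 24 h. Of 21 measured, 16 rose, each by more than 2-fold, and 1 fell, with a median of 2.00. Il1b, the precursor of interleukin 1 beta, went from 10.20 and 9.70 to 17.21 and 17.52 (change 7.41, SE 0.26, 170-fold, adjusted p = 1.87e-10). Il1a rose by 6.78 (SE 0.26), and Csf2, a colony stimulating factor for granulocytes and macrophages, by 7.19 (SE 0.40, above background on 1 of 2 unstimulated arrays). Csf3, the factor for granulocytes, was not well above background in unstimulated cells and was at least 152-fold higher after 24 h, and Il19, a cytokine of the interleukin 10 family, was at least 124-fold higher. Il10 itself went from 7.38 and 7.45 to 10.95 and 10.68 (change 3.40, SE 0.33). Tnf was at 10.81 in both unstimulated samples and at 13.19 and 13.91 after 24 h (change 2.74, SE 0.26, 6.68-fold). Csf1, the growth factor on which resident macrophages depend, fell by 0.93 (SE 0.25), but its probes differ, and the call is lost over their mean (-0.56, adjusted p = 0.131) and without replicate 1 of either group (0.118 and 0.146). Il33 read 6.11 and 6.09 before and 8.32 and 6.59 after LPS. It was called (adjusted p = 0.0149, at least 2.05-fold), but the call is lost without either unstimulated sample or without replicate 1 at 24 h (adjusted p from 0.0775 to 0.0829). Il15, a cytokine for natural killer cells, was at 7.78 and 7.58 and then 8.38 and 7.77, a change of 0.40 that did not pass (adjusted p = 0.142). It passed with a term for the replicate number (0.00937) and without replicate 2 at 24 h (0.0143).

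Chemokine genes moved both ways. Of 13 CC chemokines, 8 rose and 3 fell. The monocyte attractants Ccl7, Ccl2 (10.79 and 10.44 to 17.88 and 17.43, change 7.04, SE 0.25) and Ccl12 (change 5.68, SE 0.58, above background on 1 of 2 unstimulated arrays) and the chemokines Ccl4 (5.67, SE 0.14) and Ccl5 (4.73, SE 0.30) were among those that rose. The 3 that fell were bright in unstimulated cells: Ccl24, which attracts eosinophils, at 15.43 and 15.46 (10.10 and 10.20 after 24 h, change -5.29, SE 0.21), Ccl6 at 16.76 and 16.17 (change -4.36, SE 0.32) and Ccl9 at 15.61 and 15.73 (change -1.46, SE 0.21). All 11 genes of the CXC list passed, 6 upward and 5 downward, the latter including the CX3C chemokine Cx3cl1 (-0.64, SE 0.19). Those that rose most were the CXCR2 ligands Cxcl3 (7.07, SE 0.29), Cxcl5 (6.55, SE 0.33), Cxcl1 (6.40, SE 0.33) and Cxcl2 (5.52, SE 0.29), which attract neutrophils, and Cxcl10, which attracts T cells. Those that fell included Cxcl14 (11.54 and 11.60 to 8.67 and 8.65, change -2.91, SE 0.21) and Cxcl12 (change -1.99, SE 0.32, above background on 1 of 2 arrays at 24 h). Of 10 chemokine receptor genes 3 rose and 5 fell, beside 13.5% and 16.9% of all features. With the stricter background filter 5103 and 6424 of 20520 features rose and fell. The largest fall was that of Cxcr4 (11.52 and 11.68 to 9.58 and 9.38, change -2.12, SE 0.15). Ccr2 was not well above background after 24 h (6.84 and 6.89 before, at least 1.32-fold lower).

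Genes induced by interferon moved almost as one. Of 30, 29 rose, with a median change of 3.68, and Irf1 alone fell (14.37 in both unstimulated samples, 13.44 and 13.58 after 24 h, change -0.86, SE 0.14), a call lost with loess alone (-0.44, adjusted p = 0.0908). Ifit3, whose product belongs to a family that binds foreign RNA, went from 7.65 and 8.06 to 14.99 and 14.67 (change 6.98, SE 0.16, adjusted p = 4.83e-12). Oasl1, of the oligoadenylate synthetase family, rose by 6.71 (SE 0.15), Rsad2, which encodes viperin, by 6.55 (SE 0.17) and Ifit1 by 6.27 (SE 0.18). Irf7, the factor that amplifies interferon production, went from 9.31 and 8.89 to 15.19 and 14.96, and Isg15, a ubiquitin-like modifier, from 10.53 and 10.696 to 16.73 and 16.47. No member's samples overlapped between the groups, which nearly follows from every member having passed. The share of features without overlap among all tested was not counted, here or for the other genes said not to overlap. Of 14 guanylate-binding proteins and immunity-related GTPases, which attack the vacuoles of intracellular microbes, 13 rose (median 2.63), led by Tgtp2 (9.20 and 10.12 to 14.59 and 14.52, change 4.89, SE 0.25), Igtp (3.61, SE 0.13) and Gbp5 (3.27, SE 0.20). Gbp8, at 6.38 and 6.24 and then 6.57 and 6.84, did not pass (adjusted p = 0.0847). Tgtp2 and Tgtp1 are near-identical copies, so the share of each in these signals is uncertain.

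The promoters of the members with the largest rise in 3 lists are shown because interferon-induced genes are bound at a short repeated element. Each window runs from 250 bases before to 50 bases after the annotated start of the gene, 5′ to 3′ on the strand of the gene, from RefSeq on GRCm38.p6, and capitals mark matches on either strand to the core of the interferon-stimulated response element (GAAA, any 2 bases, GAAA) and to the NF-kB consensus. The windows are those of Ifit3 (chr19:34583279-34583578, plus strand), Tgtp2 (chr11:49064163-49064462, minus strand) and Cxcl10 (chr5:92348840-92349139, minus strand).
Ifit3: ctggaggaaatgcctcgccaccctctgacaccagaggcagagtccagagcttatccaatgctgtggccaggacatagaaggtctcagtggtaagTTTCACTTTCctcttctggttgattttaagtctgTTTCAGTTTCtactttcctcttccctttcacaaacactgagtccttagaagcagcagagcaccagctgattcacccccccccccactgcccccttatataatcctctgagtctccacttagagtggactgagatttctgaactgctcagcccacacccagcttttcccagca
Tgtp2: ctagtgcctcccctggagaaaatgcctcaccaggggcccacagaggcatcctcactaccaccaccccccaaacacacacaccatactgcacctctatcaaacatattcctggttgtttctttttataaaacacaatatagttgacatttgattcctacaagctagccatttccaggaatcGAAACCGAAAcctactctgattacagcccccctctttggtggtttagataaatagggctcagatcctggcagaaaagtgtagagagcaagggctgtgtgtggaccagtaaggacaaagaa
Cxcl10: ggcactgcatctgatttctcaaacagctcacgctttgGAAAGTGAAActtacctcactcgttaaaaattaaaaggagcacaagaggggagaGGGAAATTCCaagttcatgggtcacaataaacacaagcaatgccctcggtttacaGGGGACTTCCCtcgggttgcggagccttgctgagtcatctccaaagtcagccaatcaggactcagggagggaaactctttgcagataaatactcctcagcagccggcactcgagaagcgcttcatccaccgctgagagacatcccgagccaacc
In the window of Ifit3 the element lies 2 times, beginning 156 and 122 bases before the start, and in that of Tgtp2 once, beginning 70 bases before it. The window of Cxcl10 holds the interferon element beginning 213 bases before the start and the NF-kB consensus beginning 159 and 104 bases before it, the latter as overlapping matches. The interferon element was found in 13 of 30 windows of the interferon-induced list (43.3%) and in 9 of 10 of the GTPase list (90%), against 3.44% of all 32851 windows of this length. The NF-kB consensus was found in 6 of 17 windows of cytokine genes (35.3%) and 4 of 9 of the CXC list (44.4%), against 8.46% of all. These windows came from 24 genes of the interferon-induced list, 9 of the GTPase list, 15 cytokine genes and 9 of the CXC list. Some genes had no window and some had several. Over named genes that rose more than 8-fold, 15.8% of windows held the interferon element and 14.7% the NF-kB consensus. For those that fell more than 8-fold the shares were 1.82% and 7.27%. Over all named genes called, the interferon element was in 4.7% of windows of those that rose and 2.59% of those that fell. The NF-kB consensus was in 10.5% of windows both of those that rose and of those that fell. A match describes the sequence and is neither a measured binding site nor a cause of a change.

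Genes of arginine metabolism, nitric oxide and itaconate rose in 7 of 10 cases, and none fell (median 1.63). Slc7a2, the transporter that brings arginine into activated macrophages, went from 7.78 and 7.75 to 14.16 and 14.02 (change 6.33, SE 0.14), and Nos2, the inducible nitric oxide synthase, from 7.86 and 7.93 to 13.53 and 12.42 (change 5.08, SE 0.37, 33.8-fold). Acod1, which makes itaconate, rose by 3.48 (SE 0.17), and Gch1, for the cofactor of nitric oxide synthase, by 1.93 (SE 0.19). Arg1, which competes with Nos2 for arginine, had the largest replicate spread of the list. It was at 12.11 and 10.64 before and at 15.23 and 13.75 after LPS, a change of 3.11 (SE 0.70, adjusted p = 0.00314 in limma). Within replicates 1 and 2 Arg1 changed by 3.115 and 3.107. The spread was thus an offset between the replicates, which the fit without pairing counts as error. The change was 2.38 without replicate 2 of the unstimulated cells and 2.37 without replicate 1 at 24 h, and then missed the threshold. Both of these fits break a pair of same-numbered samples. Arg2, at 11.08 and 10.41 and then 10.53 and 10.50, did not pass (adjusted p = 0.619).

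All 13 genes of the synthesis of prostaglandins and leukotrienes passed, 4 upward and 9 downward, with a median of -1.59. Ptgs2, the inducible cyclooxygenase COX-2, went from 7.30 and 6.96 to 14.97 and 15.64 (change 8.17, SE 0.26, 289-fold). Pla2g4a, which frees arachidonic acid from membranes, rose by 2.67 (SE 0.19) and Ptges, which makes prostaglandin E2, by 0.82 (SE 0.11). Downward, beside Alox15, were Ptgis, the prostacyclin synthase (14.59 and 13.82 to 9.53 and 9.52, change -4.68, SE 0.31), Alox5, the first enzyme of leukotriene synthesis (13.30 and 13.04 to 9.43 and 9.84, change -3.54, SE 0.22), Ltc4s, for leukotriene C4 (-2.84, SE 0.12), Alox5ap, which presents arachidonic acid to Alox5 (-1.77, SE 0.17) and Ptgs1, the constitutive cyclooxygenase (-1.70, SE 0.27).

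Of 18 genes of glucose uptake and glycolysis, 15 rose and 1 fell, with a median of 0.74. The largest rises were those of Slc16a3, which exports lactate (11.20 and 11.43 to 13.77 and 13.66, change 2.40, SE 0.18), the glucose transporter Slc2a1 (2.26, SE 0.27), the regulator Pfkfb3 (2.06, SE 0.39) and Pgk1 (1.66, SE 0.12). Gpi1 fell by 0.47 (SE 0.11), though not with loess alone (adjusted p = 0.764) or without unstimulated replicate 1 (0.0728), and Aldoa, at 17.12 and 16.94 and then 17.12 and 16.95, did not pass (adjusted p = 0.984). Of 19 genes of the tricarboxylic acid cycle, 9 fell and 1 rose (median -0.34), most by less than 2-fold. With loess normalization alone only 2 of these fell and 3 rose, so the direction of this list depends on the scaling. The exceptions in size were the isocitrate dehydrogenases Idh1 (10.64 and 10.02 to 7.99 and 8.18, change -2.24, SE 0.26) and Idh2 (-1.50, SE 0.11). Sterol synthesis was mixed, with 7 of 20 genes up and 2 down, from -1.41 for Srebf2 to 1.19 for Lss, and 5 up and 5 down without unstimulated replicate 2. Among 14 genes controlled by liver X receptors or acting in cholesterol efflux, 5 rose and 7 fell. Beside Ch25h, the largest changes were those of Apoc1 (13.14 and 11.94 to 9.27 and 8.10, change -3.86, SE 0.54), lipoprotein lipase Lpl (-3.15, SE 0.28) and Cyp27a1, which was at least 5.60-fold lower. The cholesterol exporter Abca1 did not pass (11.21 and 11.53, then 11.57 and 11.34, adjusted p = 0.859).

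Cell cycle genes were higher after 24 h. Of 23 genes of DNA replication, 22 rose and none fell (median 2.09), and of 24 genes of mitosis, 23 rose and none fell (median 3.20). Of all features tested 13.5% rose, and with the stricter background filter 5103 of 20520 did. Rrm2, a subunit of ribonucleotide reductase, went from 8.86 and 8.30 to 13.62 and 13.22 (change 4.84, SE 0.25, adjusted p = 5.51e-09). Uhrf1, which maintains DNA methylation at the replication fork, rose by 3.90 (SE 0.21), the helicase subunit Mcm5 by 3.30 (SE 0.15) and Pcna, the sliding clamp, by 0.86 (SE 0.15). Cdt1 was the only member that did not pass (12.23 and 12.39, then 12.76 and 12.43, adjusted p = 0.216, or 0.0323 with loess alone). In mitosis, Birc5, which encodes survivin, went from 9.03 and 8.77 to 13.70 and 13.32 (change 4.61, SE 0.21), Plk1, the polo-like kinase, from 7.82 and 7.63 to 12.23 and 12.06 (change 4.42, SE 0.14), Ccnb2, a cyclin of mitotic entry, from 7.87 and 7.72 to 12.18 and 11.95 (change 4.27, SE 0.12) and Top2a, the topoisomerase that untangles chromosomes, from 7.08 and 6.86 to 11.35 and 11.06 (change 4.24, SE 0.17). Cenpf was not well above background in either group. A further list of 17 held cyclins of the first gap phase, cyclin-dependent kinases, their inhibitors, Myc, E2f1 and Rb1. Of these 6 rose and 5 fell, among them Ccnd2 upward (9.98 in both, then 13.32 and 13.13, change 3.25, SE 0.14), Ccne1 upward (3.02, SE 0.16) and the inhibitors Cdkn1c (-2.0, SE 0.16) and Cdkn1b (-1.12, SE 0.16) downward. Myc did not pass (change 0.59). In other fits it did, such as those with a term for the replicate number (adjusted p = 0.00286) and with the stricter background filter (0.0468). The arrays do not show which of the cells in the culture expressed these cell cycle genes. The calls of the markers of other cells are given with those lists. Over the 10 B cell markers the mean level was 11.11 and 11.58 before and 10.85 and 10.82 after LPS, over 11 T and NK cell markers 8.85 and 9.46 and then 8.68 and 8.87, and over 8 mast cell markers 9.64 and 9.33 and then 8.28 and 7.76.

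The window of Plk1 is shown for 2 elements of cell cycle promoters, the CCAAT box and the CHR element TTTGAA. It was chosen with its values known, as the mitosis gene with the largest rise whose window holds both, and the window of Birc5 holds neither. It lies on GRCm38.p6 at chr7:122159185-122159484 on the plus strand, with the same bounds around the start, and capitals mark the matches, searched on both strands.
Plk1: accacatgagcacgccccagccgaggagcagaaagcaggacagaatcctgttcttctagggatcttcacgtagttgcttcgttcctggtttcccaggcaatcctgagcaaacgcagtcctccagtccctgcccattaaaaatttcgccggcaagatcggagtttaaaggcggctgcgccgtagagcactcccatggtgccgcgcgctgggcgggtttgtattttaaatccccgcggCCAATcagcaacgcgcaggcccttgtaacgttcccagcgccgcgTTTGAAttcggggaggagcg
The CHR letters occurred in 16 of 22 windows of mitosis genes (72.7%) and 2 of 20 of replication genes (10%). They also occurred in 4 of 10 windows of the GTPase list (40%), against 17.9% of all windows. The CCAAT box was in 17 of 22 windows of mitosis genes (77.3%) and 15 of 20 of replication genes (75%), against 37.4% of all. The windows came from 21 mitosis, 18 replication and 9 GTPase genes.

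Genes that mark the large resident macrophages of the peritoneum were lower after 24 h. Of 25, 21 fell, 2 rose and 2 did not pass, with a median of -1.77. Of all features 16.9% fell, with a median of -0.015. With the stricter background filter 6424 of 20520 fell, with a median of -0.065. After Vsig4 and Alox15 the largest falls were those of Timd4, the receptor TIM4 for phosphatidylserine on dying cells (12.92 and 13.08 to 7.38 and 8.04, change -5.29, SE 0.21, adjusted p = 4.95e-10), coagulation factor F5 (12.95 and 12.46 to 8.17 and 8.23, change -4.51, SE 0.27), Tgfb2 (-4.47, SE 0.29) and Cd93 (-4.45, SE 0.26). Gata6, the factor that sets this identity, went from 10.53 and 9.93 to 7.75 and 7.53 (change -2.59, SE 0.27, adjusted p = 3.94e-06), and Rarb, a retinoic acid receptor, was at least 2.73-fold lower. The unstimulated and 24 h samples did not overlap in any of these, which nearly follows from all of them having been called. Adgre1 did not pass (16.11 and 15.91, then 15.51 and 16.005, adjusted p = 0.326), and neither did Selp. The 2 that rose were Serpinb2, an inhibitor of plasminogen activators (14.30 and 14.06 to 16.34 and 16.67, change 2.33, SE 0.15), and Fabp7 (0.63, SE 0.19), a call lost without replicate 2 of the unstimulated or replicate 1 of the 24 h cells (adjusted p = 0.131 and 0.243). The plot of every member by sample shows both, and the spread between replicates.

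**Figure D2:**
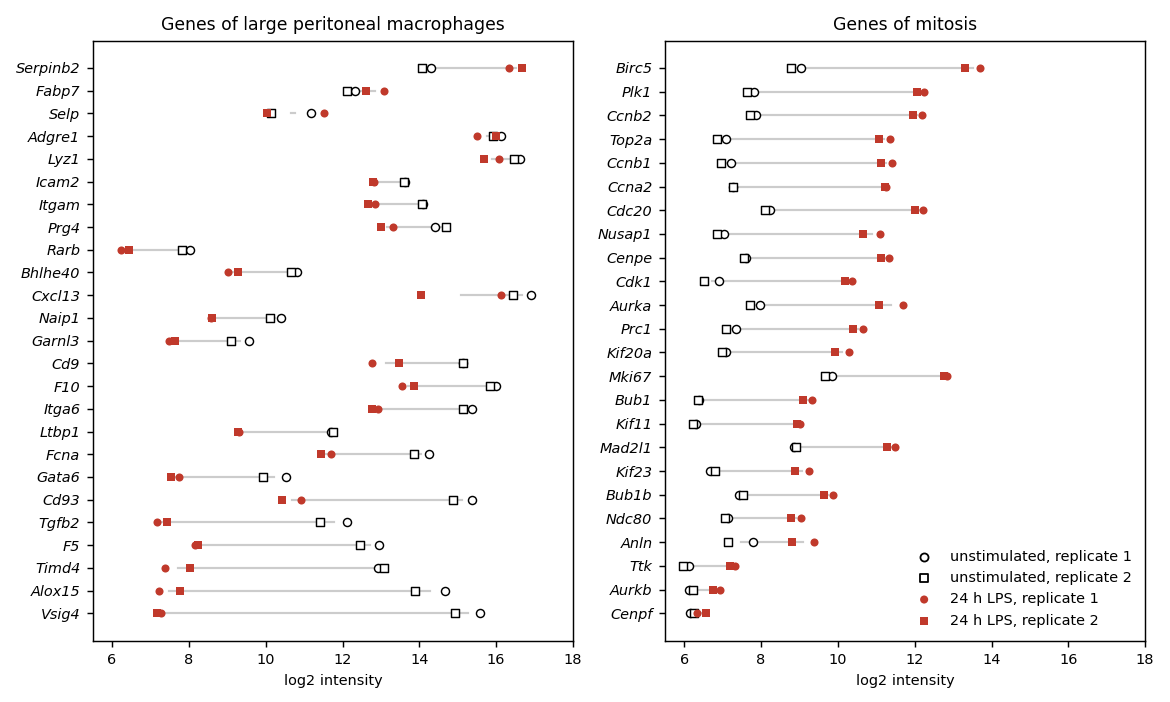
Level of each gene (log2 intensity) of large peritoneal macrophages (left) and of mitosis (right) in the 4 WT samples, open for unstimulated and filled for 24 h of LPS, circles for replicate 1 and squares for replicate 2, joined by a line between the group means. On the left 21 of 25 genes fell and on the right 23 of 24 rose, and both samples of a group lie close together for most genes.

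The promoter of Vsig4, the gene with the largest fall, is shown for comparison with those above (GRCm38.p6, chrX:96293389-96293688, minus strand). It has no match to the interferon element, the NF-kB consensus, the CCAAT box or the CHR letters, which says only that these letters are not in this window, so it carries no capitals.
Vsig4: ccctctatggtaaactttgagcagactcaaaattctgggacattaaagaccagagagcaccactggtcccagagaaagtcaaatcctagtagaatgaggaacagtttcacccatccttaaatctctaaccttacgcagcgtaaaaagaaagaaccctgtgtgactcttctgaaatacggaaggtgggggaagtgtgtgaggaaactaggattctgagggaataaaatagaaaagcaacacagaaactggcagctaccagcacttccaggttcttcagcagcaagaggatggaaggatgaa
The 20 windows of the resident macrophage list came from 17 genes. None held the interferon element or the NF-kB consensus, 10 held the CCAAT box (50%) and 8 the CHR letters (40%).

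Complement genes moved in both directions. Of 14, 7 fell and 4 rose, beside 16.9% and 13.5% of all features. With the stricter background filter 6424 and 5103 of 20520 features fell and rose. The 3 chains of C1q, which resident macrophages make in quantity, fell from 16.14 and 15.69 to 12.82 and 12.23 for C1qa (change -3.39, SE 0.28), from 15.50 and 14.95 to 11.72 and 10.73 for C1qb (-4.00, SE 0.31) and from 16.03 and 15.53 to 11.12 and 10.53 for C1qc (-4.96, SE 0.24). C2 and Cfb, which give rise to the C3 convertases, rose by 1.94 (SE 0.26) and 1.88 (SE 0.16), and C3 did not pass (15.45 and 15.54, then 15.14 and 15.54, adjusted p = 0.614).

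Receptors for the uptake of particles and dying cells were more often lower than higher, 9 of 17 against 4. Cd5l, a secreted scavenger protein of tissue macrophages, went from 13.38 and 13.36 to 8.39 and 8.12 (change -5.11, SE 0.13). Gas6, which links phosphatidylserine to the kinase Mertk, fell by 4.01 (SE 0.38), the fatty acid and thrombospondin receptor Cd36 by 3.33 (SE 0.18) and Mertk by 2.75 (SE 0.17). Marco, at 17.996 in both unstimulated samples and 17.44 and 17.83 after 24 h, did not pass (adjusted p = 0.447). Olr1, the receptor for oxidized low-density lipoprotein, went from 10.66 and 10.87 to 9.84 and 9.60 (change -1.04, SE 0.17). The formyl peptide receptors Fpr1 (12.39 and 12.30 to 15.74 and 15.67, change 3.36, SE 0.13) and Fpr2 (1.94, SE 0.11), which sense bacterial peptides, rose. Fcgr1, the high-affinity receptor for immunoglobulin G, rose from 9.96 and 9.11 to 13.28 and 12.63 (change 3.43, SE 0.46), whereas Cyba and Ncf1 of the phagocyte oxidase fell by 1.14 (SE 0.15) and 1.34 (SE 0.14).

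Lysosomal proteases and membrane proteins fell in 13 of 17 cases and rose in 1 (median -1.15). Ctsd went from 17.60 and 17.48 to 15.99 and 15.93 (change -1.58, SE 0.13), and the largest changes were those of Tpp1 (-2.50, SE 0.19), Ctsf (-2.38, SE 0.23), Lgmn and Ctsa (-1.85, SE 0.17). Tfeb, the transcription factor of lysosomal genes, fell by 1.30 (SE 0.12). Antigen presentation differed by class. Of 12 genes of MHC class II presentation, 9 fell and none rose (median -0.92), such as Ifi30, the thiol reductase (14.79 and 14.69 to 13.20 and 13.08, change -1.60, SE 0.15), H2-Oa (-1.30, SE 0.28) and H2-Ob (-1.26, SE 0.23), and with loess alone 5 fell. The B cell markers measured in these cultures, whose cells express the same genes, had the mean levels given above, and their part in this fall was not tested. Of 16 genes of class I presentation, 13 rose and none fell (median 0.89), led by the peptide transporter Tap1 (9.96 and 10.03 to 12.73 and 12.52, change 2.63, SE 0.15), its regulator Nlrc5 (2.10, SE 0.13) and the chaperone Calr (1.68, SE 0.11). Co-stimulatory ligands moved in both directions, with Cd274, which encodes PD-L1, up by 3.02 (SE 0.13) and Cd40 by 1.03 (SE 0.10), and Cd86 (13.37 and 12.89 to 10.98 and 11.13, change -2.07, SE 0.17) and Cd80 (-1.83, SE 0.15) down. The probes of Cd80 disagree, and over their mean it did not pass (-0.21, adjusted p = 0.227).

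Secreted growth factors and matrix genes included some of the largest changes in both directions, 10 of 23 up and 8 down. Inhba, a subunit of activin A, was at 10.28 and 7.51 in unstimulated cells and at 14.85 and 15.66 after 24 h (change 6.36, SE 0.74). Its unstimulated samples differed from each other by more than those of most genes, and both lay below the 24 h samples. The epidermal growth factor receptor ligand Ereg was at least 22.6-fold higher, and the metalloproteinase genes Mmp13 (4.59, SE 0.23) and Mmp9 (2.19, SE 0.22) rose. Fibronectin, Fn1, went from 16.66 and 16.94 to 11.42 and 12.06 (change -5.06, SE 0.22) and insulin-like growth factor Igf1 from 14.65 and 14.64 to 8.24 and 9.33 (change -5.86, SE 0.24). Tgfb1, a substrate of FURIN, did not pass (11.79 in both, then 11.26 and 11.38, adjusted p = 0.0744), but passed as a fall with the replicate block (0.00411), the WT channels alone (0.00813), processed signals (0.0431) and the stricter background filter (0.0482). Furin itself was at 11.56 and 11.48 in unstimulated and 11.19 and 11.06 in 24 h WT cells. The change of -0.40 (SE 0.14, adjusted p = 0.0386) is near the threshold, and it missed it with Aquantile scaling (0.0549), with loess alone (0.394) and without any one of the 4 WT samples (0.0654 to 0.202). Of the other 8 genes of the proprotein convertase family, Mbtps1, the site-1 protease, fell by 0.92 (SE 0.09) and the rest, among them Pcsk1, Pcsk2, Pcsk4, Pcsk5, Pcsk6 and Pcsk7, did not pass. Under alternatives Pcsk4 passed in 4 fits (adjusted p = 0.0305 to 0.0464), Pcsk7 with the replicate block (0.0252) and the stricter filter (0.0445), and Pcsk5 without replicate 2 at 24 h (0.0474).

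Endoplasmic reticulum chaperones and heat shock genes rose in 9 of 13 cases, and none fell (median 1.67), with Pdia4 (9.60 and 9.76 to 12.32 and 12.28, change 2.62, SE 0.15) and Hspa5, which encodes BiP (14.83 and 14.97 to 16.68 and 16.84, change 1.86, SE 0.21), at the top. Serine and one-carbon enzymes induced by ATF4 rose as well, with Shmt2 at 2.29 (SE 0.17) and Psat1 at 2.23 (SE 0.10), in a list of which 8 of 14 rose and 2 fell. Of 15 genes of the circadian clock, 9 fell and 1 rose (median -0.66). Dbp, a clock output factor, went from 13.33 and 13.17 to 9.06 and 9.02 (change -4.21, SE 0.12), Nr1d1 and Nr1d2, the REV-ERB repressors, fell by 2.43 (SE 0.26, above background on 1 of 2 arrays at 24 h) and 2.29 (SE 0.10), and Tef fell by 2.43 (SE 0.18). The hour of day at which cells were collected is not given in the sources used here. Of 16 genes of the NRF2 and antioxidant list, 2 rose and 5 fell. Of all features 13.5% rose and 16.9% fell, and with the stricter background filter 5103 and 6424 of 20520 did. The balance of this list turned with loess alone (4 rose, 3 fell) and without replicate 1 at 24 h. Among them were the cystine transporter Slc7a11, which rose (2.73, SE 0.34), and the glutathione peroxidases Gpx1 (16.41 and 16.29 to 13.45 and 13.78, change -2.73, SE 0.14) and Gpx4 (-1.89, SE 0.08), which fell. Among 13 inflammasome genes 7 rose and 4 fell, with Nlrp3 up by 1.72 (SE 0.15) and Pycard, the adaptor ASC, down by 0.96 (SE 0.18). Of 16 genes of iron and metal handling, Lcn2 included, 5 rose and 3 fell, and of 19 immediate early genes 3 rose and 6 fell (4 and 4 with loess alone). These counts and those of the inflammasome list stand beside the same shares of all features. The 16 housekeeping genes had a median of -0.013. Of them Gusb fell by 1.98 (SE 0.17) and Pgk1 rose by 1.66 (SE 0.12), and Actb, Ppia and Rplp0 did not pass. The plot of all lists places them side by side.

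**Figure D3:**
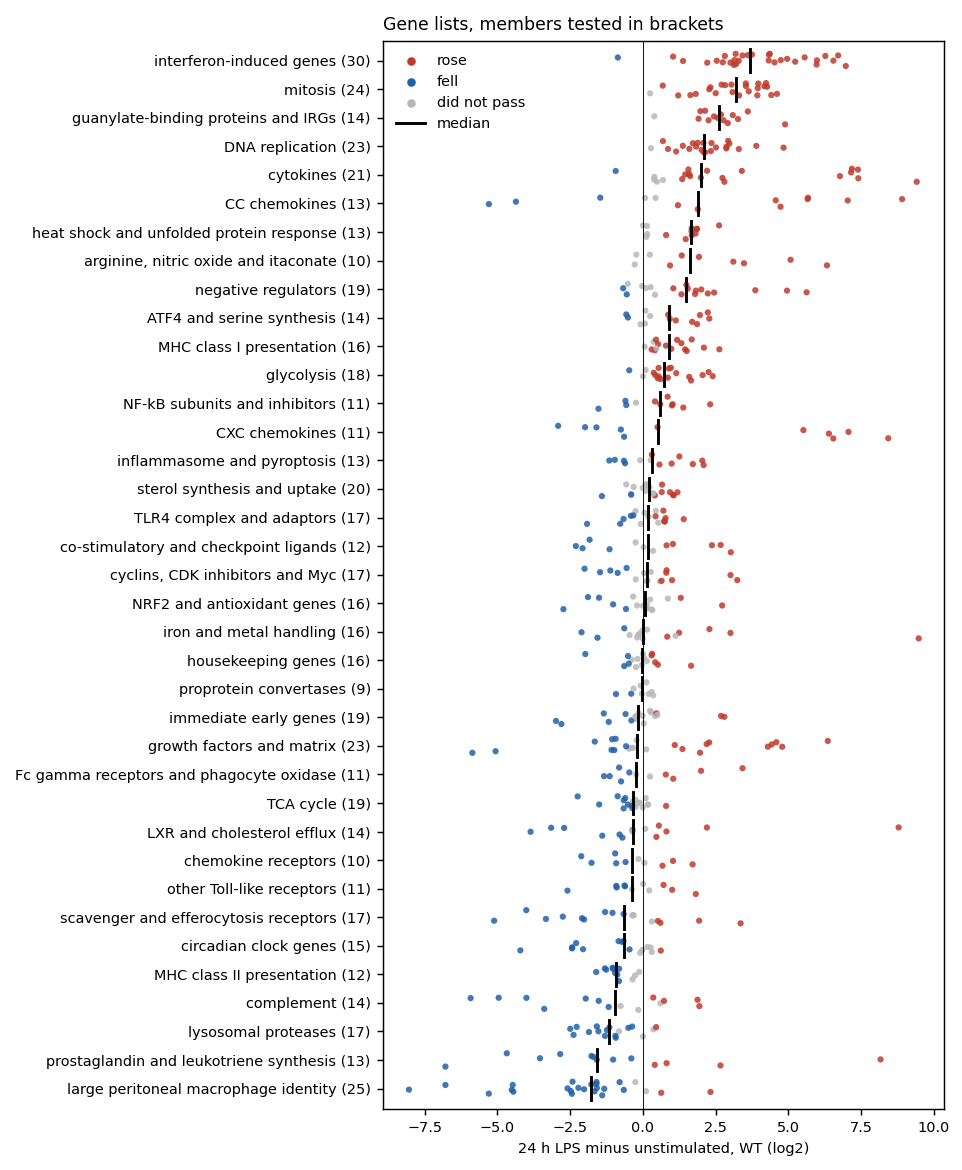
Change of each list member from unstimulated to 24 h of LPS in WT macrophages (log2, horizontal axis) by gene list, ordered by median; red members rose, blue ones fell, grey ones did not pass the test, and the black bar is the median. Interferon-induced genes and mitosis have the highest medians, 3.68 and 3.20, and genes of large peritoneal macrophages the lowest, -1.77.

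Markers of the other cell types in the cultures moved as follows. Of all features 13.5% rose and 16.9% fell, and with the stricter background filter 5103 and 6424 of 20520 did. A marker count near these shares shows nothing particular to a cell type. Of 8 mast cell markers 6 fell and none rose, with Cpa3 going from 12.10 and 11.48 to 9.23 and 8.28 (change -3.04, SE 0.42) and the mean level of the list from 9.64 and 9.33 to 8.28 and 7.76. Of 10 B cell markers 2 fell, Fcmr (-2.49, SE 0.24) and Cd79b (-1.29, SE 0.19). With the replicate block 5 B cell markers fell, Ms4a1 among them (adjusted p = 0.00265), and 4 without unstimulated replicate 1. Of 11 T and NK cell markers, Cd3e, Cd2 and Cd4 fell and Gzma rose (at least 1.47-fold), but with loess alone none fell and with the replicate block 5 did, and each of these 4 calls is lost without 1 or more of the 4 WT samples (adjusted p from 0.0652 to 0.263). Of 7 eosinophil markers, Ear2 (at least 4.69-fold), Siglecf (at least 2.14-fold) and Ear1 (at least 1.81-fold) fell and Ccr3 rose (0.68, SE 0.16), the last above background on 1 of 2 unstimulated arrays and not called without replicate 2 of either group (adjusted p = 0.0848 and 0.0573). Of 8 dendritic cell markers 5 fell and 1 rose, Flt3 (1.56, SE 0.14), and the mean of the list was 9.99 and 10.02 before and 8.83 and 8.86 after LPS. Of 8 neutrophil markers S100a8 rose (11.32 and 11.39 to 15.85 and 14.40, change 3.77, SE 0.36), as did Camp (1.82, SE 0.16), Mmp8 fell by 1.65 (SE 0.20) and Elane by 0.86 (SE 0.12), and S100a9, Ngp, Retnlg and Cxcr2 were not well above background in either group. The fibroblast gene Dcn rose by 2.85 (SE 0.17), in a list of 12 of which 2 rose and 1 fell and whose mean level went from 6.71 and 6.73 to 7.14 and 7.09. Among 7 macrophage markers, Fcgr1 and Cd14 rose as given above, Adgre1 did not pass and 4 fell, namely Mertk, Lyz2 (18.16 and 17.70 to 16.08 and 15.62, change -2.09, SE 0.22), Csf1r (-2.03, SE 0.15) and Itgam (-1.33, SE 0.13), which did not pass over the mean of its probes (-0.40, adjusted p = 0.0939). The part of any of these cells in the changes of other lists was not tested.

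How the state at 24 h stood against that at 4 h was tested as a contrast of the same fit. Between the 2 times, 5587 features were higher at 24 h (15.1%) and 5388 were lower (14.6%). This split depends on the scaling: with loess alone 79.8% of the calls were higher at 24 h, against 50.9% here. In the samples labelled 4 h, Furin was not lower in KO than in WT (12.02 and 11.97 against 12.02 and 11.65), unlike at the other times, and the 4 h samples are named here as labelled. The 5 genes with the largest excess at 24 h over 4 h all belong to the stefin A family, Csta2 (8.66, SE 0.40), Cstdc5 (7.92, SE 0.27), Cstdc4 (7.36, SE 0.27), Stfa2l1 (7.17, SE 0.22) and Stfa3 (5.80, SE 0.27). They neighbour each other on chromosome 16 and are near-identical in part, so a probe may report more than one of them, and Cstdc5, Cstdc4 and Stfa2l1 were above background on 1 of 2 arrays at 4 h. Csta2 was at 6.97 and 6.70 after 1 h, 8.67 and 7.20 after 4 h and 16.78 and 16.42 after 24 h, and Lcn2 was also late, at 7.88 in both samples after 1 h and 12.84 and 12.51 after 4 h. Both stood far above their 4 h level at 24 h in both replicates.

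In the other direction, the largest excess at 4 h over 24 h was that of Plagl1, a zinc finger factor, which was at 7.08 and 6.88 in unstimulated cells, 13.97 and 13.89 after 4 h and 7.26 and 7.29 after 24 h (24 h minus 4 h -6.65, SE 0.13). Tnfsf15, a ligand of the tumour necrosis factor family (-5.96, SE 0.19), and Ifnb1, interferon beta (-5.60, SE 0.18), followed. Ifnb1 was at 13.06 and 13.48 after 4 h and at 7.72 and 7.63 after 24 h. Tnf was at 17.72 and 17.51 after 1 h and 17.78 and 17.92 after 4 h, and its level at 24 h was lower by 4.30 (SE 0.26). Il6 did not pass in this comparison (17.06 and 17.26 at 4 h, adjusted p = 0.815), and neither did Il1b (0.958). Vsig4 and Igf1 were lower at 24 h than at 4 h by 5.43 (SE 0.28) and 4.96 (SE 0.24).

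Set out by list, all 11 NF-kB genes were lower at 24 h than at 4 h, as were 14 of 21 cytokines, 13 of 14 GTPases, 21 of 30 interferon-induced genes and 15 of 19 immediate early genes, while 20 of 23 genes of DNA replication, 22 of 24 of mitosis and 11 of 18 of glycolysis were higher. At 4 h the median change from unstimulated cells had been 0.0080 for replication, 0.17 for mitosis and -0.44 for glycolysis, and 4.49 for interferon-induced genes and 2.28 for NF-kB genes. Mki67 was an exception among mitosis genes, up by 3.79 at 4 h and by 3.05 at 24 h. Arg1 changed by -2.21 from 0 to 4 h and by 5.33 (SE 0.70) from 4 to 24 h, with levels of 10.17 and 8.16 at 4 h. Slc16a3 had a like course, at 9.55 and 9.69 at 4 h, below its unstimulated samples. Of the resident macrophage list 14 were lower at 24 h than at 4 h and 3 higher. The time course plots show these early, late and falling patterns for 16 genes.

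**Figure D4:**
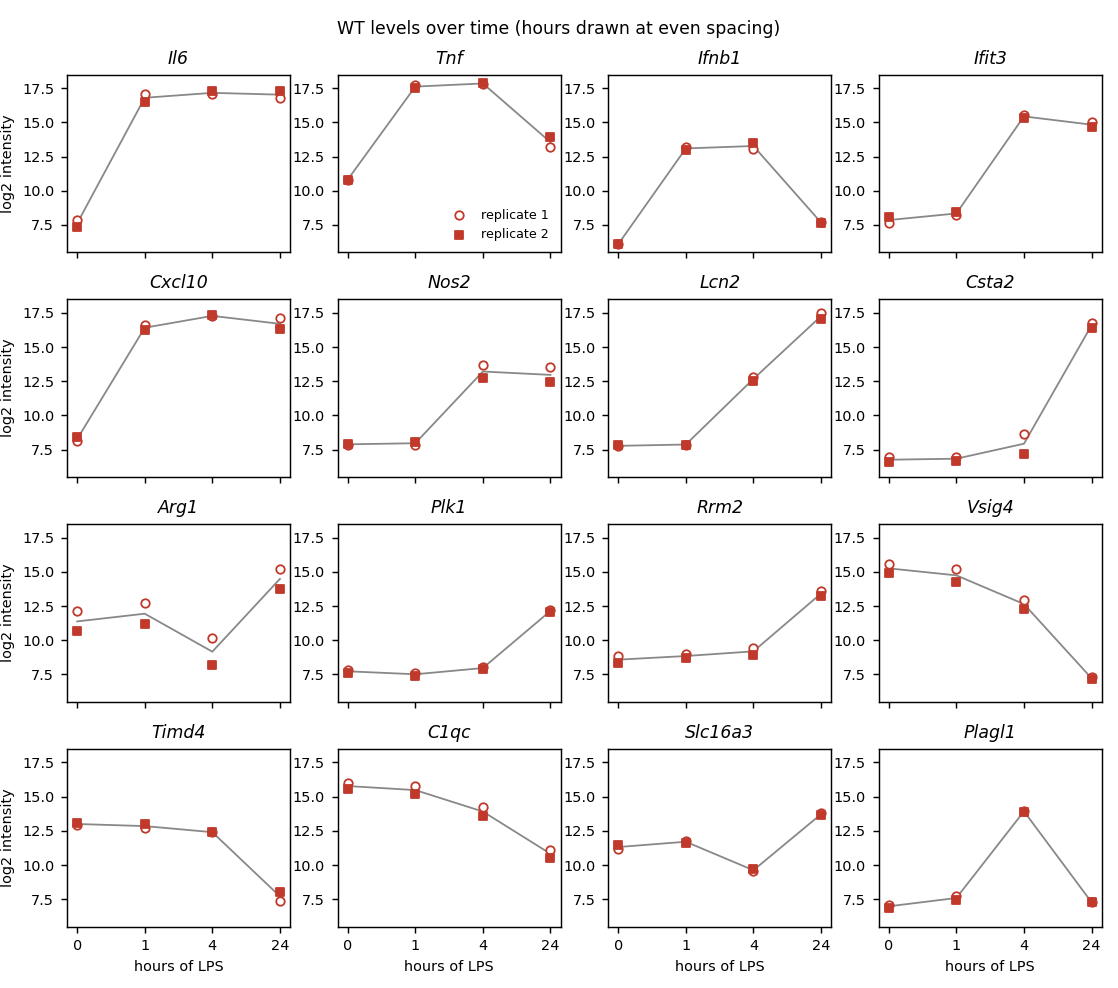
Levels (log2 intensity) of 16 genes in WT macrophages, unstimulated (0) and after 1, 4 and 24 h of LPS, drawn at even spacing; open circles are replicate 1, filled squares replicate 2, and the line joins the means. Tnf, Ifnb1 and Plagl1 are back near or toward their unstimulated level at 24 h, Csta2, Plk1 and Rrm2 rise between 4 and 24 h, and Vsig4, Timd4 and C1qc are lowest at 24 h.

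The WT response was set beside that of KO cells, which shared the arrays but not the samples. The difference between the responses passed the test for 3 features of 36927 (0.00812%). An unadjusted p under 0.05 in limma was found for 1240. That is a smaller share of all features than the 0.05 that such a threshold lets pass with no difference. The 3 features past the adjusted threshold were Bdh2, Olr1 and Serpinb2. Olr1 fell in WT by 1.04 and changed by -3.04 in KO, a difference of -2.0 (adjusted p = 0.0275). None of the 3 calls held with only the unstimulated and 24 h arrays in the fit (adjusted p = 0.142 to 0.149). For the other genes that the study followed, the WT and KO responses at 24 h were 9.42 and 7.96 for Il6, 7.41 and 5.62 for Il1b, 2.74 and 2.12 for Tnf, 5.08 and 6.30 for Nos2 and 3.11 and 1.65 for Arg1. None of these differences passed the test, with the lowest adjusted p in limma that of Il1b (0.22). Il12rb1, a chain of the interleukin 12 receptor, rose by 1.99 in WT (7.01 and 7.16 to 8.88 and 9.28) beside 3.09 in KO, a difference that did not pass (adjusted p = 0.234). Trem1, a receptor that amplifies inflammation, did not pass in WT (9.87 and 9.57, then 9.46 and 9.21, adjusted p = 0.403).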

How the data were processed

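WT and KO RNA of 4 times, 2 biological replicates each, had been hybridised together on 8 arrays (16 channels). The authors scanned them with Agilent Feature Extraction 10.7.3 and deposited its output as spot and background intensities of both dyes, which were used here. From these, with limma 3.58.1 (R 4.3.3, statmod 1.5.0), background was corrected by normexp (offset 50), followed by loess within and quantile normalization between arrays. The methods of the study also name loess and quantile normalization, and no background correction. Spots were averaged per probe, and a gene was read from its brightest probe. Of 55681 gene probes 27509 carried a gene name (20887 genes, 5513 with several probes). Features with a mean log2 intensity under 6 were left out. All 16 channels entered 1 separate-channel fit with 8 groups, an estimated correlation within spots and empirical Bayes, and adjusted p-values are those of limma after Benjamini-Hochberg, called under 0.05. The number of arrays limits the precision.

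Genes named are the 12 largest changes each way called alike in both replicates and bright enough on both arrays of the higher group, up to 4 leading members of each list with central members that did not pass, the genes followed by the study and the 5 largest differences each way between 24 and 4 h. Further list members were named with their values known. Lists and members were chosen with earlier results of these data known. "At least" folds set the dimmer group at the lowest signal well above background. Alternatives changed the background correction, scaling, filter, probe rule, replicate term, samples and test. Values of some members of the lists, counted in them, are not reported here.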

Additional observations from a re-analysis of the deposited data

Results flagged for a closer look

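The responses of WT and KO cells at 24 h differed past the adjusted threshold in limma for Bdh2 (KO minus WT -1.59, adjusted p = 0.0491), Olr1 (-2.0, 0.0275) and Serpinb2 (-1.71, 0.0275). Bdh2 was at 7.39 and 7.29 in unstimulated and 8.10 and 8.64 in 24 h WT cells, a change of 1.03, and the change in KO was -0.55. Serpinb2 changed by 2.33 in WT and 0.62 in KO. The 3 differences kept their sign without any one of the replicates, but none passed without either unstimulated replicate (adjusted p from 0.17 to 1).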

How the results depend on the processing

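The 11225 calls between unstimulated and 24 h WT cells became 9598 to 12778 under other background corrections, scalings, filters, probe rules, the WT channels alone and a term for the replicate number, and 9054 to 9284 when 1 replicate was left out. The methods' t-test gave 10301 at an unadjusted p under 0.05 and 12 after Benjamini-Hochberg, and 3895 calls also changed by over 2-fold. With loess alone 53.1% of calls were upward, against 44.6%. With the software's processed signals 14855 features were tested, with a median change of -0.12. Between 24 and 4 h, 10975 calls became 8811 to 9824 without 1 replicate and 9660 or 7 with the methods' t-test before and after adjustment. The 3 differences between WT and KO responses became 7 with Aquantile scaling, 19 with loess alone, 5 over the mean of a gene's probes, 94 with the replicate block, 0 with only the compared arrays and 0 to 10 without 1 replicate. The causes of these moves were not tested.

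The replicate number is also the dye within WT. With the replicate block the calls were 12778 and, between 24 and 4 h, 12770, and deviations of same-numbered WT samples correlated at 0.339 to 0.565 over genes. Of 3550 values of named genes under alternatives, 247 lost and 34 gained a call and 29 changed sign, the last only for genes that had not passed. Aldoa was at -0.025 with Aquantile scaling and -0.034 with processed signals, Ppia at -0.033 and -0.12, Actb at 0.079 with Aquantile scaling, and Rplp0 at -0.032 with processed signals and -0.075 over the mean of probes. With loess alone Adgre1 was at 0.14, C3 at 0.28 and Retnlg at 0, and Epx was at -0.092 without background correction.
Without 1 replicate the ranges of those that changed sign, none of them called in the full data, were -0.075 to 0.24 for Abca1, -0.15 to 0.078 for Actb, -0.087 to 0.098 for Aldoa, -0.56 to 0.11 for Arg2, -0.36 to 0.049 for C3, -0.033 to 0.12 for Epx, -0.21 to 0.61 for Pcsk5, -0.19 to 0.21 for Ppia, -0.071 to 0.062 for Retnlg, -0.14 to 0.20 for Rplp0 and -0.635 to 0.85 for Selp.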
